A study of Mus musculus with 10 samples.

Results

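The 7 genes described here, H2-Aa, H2-Ab1, H2-Eb1, H2-DMa, H2-DMb1, Cd74 and Ciita, make and load MHC class II, the complex that shows peptides to CD4+ T cells. They were picked by gene name from a table of 55487 genes measured in colonic intestinal epithelial cells (IECs). The groups were 5 WT C57BL/6J mice and 5 RhoB-/- mice, homozygous for a germline knockout of the small GTPase gene Rhob on the same background, with 1 bulk RNA library per mouse and no treatment named in the labels. By the study's methods the WT mice were purchased males, the RhoB-/- mice came from a transgenic facility, all were kept under specific pathogen free conditions, and mice were 6 to 8 weeks old unless stated otherwise, so the source of the mice and the genotype cannot be told apart. The comparison asks what loss of RhoB changes in the transcripts of unchallenged colonic IECs.

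The values are TPM (a relative transcript abundance), which are scaled for gene length and library size and keep no sequencing depth, so the reads behind a value are unknown and no counting error can be given. Every library carried the epithelial transcripts Epcam (968.8 to 1639 TPM) and Krt8 (3938 to 6128 TPM). The knocked-out gene Rhob was at 170.5 to 388.7 TPM in WT libraries and at 0.09, 0.10, 0.35 and 0.57 TPM in RhoB-/- replicates 1 to 4, whereas the library labelled RhoB-/- replicate 5 had 110.9 TPM of it. That library keeps its labelled group, and the class II calls and several of the list counts are also given without it. Fold changes of single genes include it, apart from the ranges over left-out mice.

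A class II molecule is a pair of chains, and its peptide groove is at first plugged by another protein. H2-Aa and H2-Ab1 encode the alpha and beta chains of I-A, and H2-Eb1 the beta chain of I-E. Cd74 encodes the invariant chain, which fills the groove and guides the complex to endosomes, where cathepsins trim it to a short fragment. H2-DMa and H2-DMb1 encode H2-DM, the chaperone that swaps this fragment for an antigenic peptide. Ciita encodes the coactivator that turns the whole set on. It does not bind DNA itself but docks on factors that sit on short promoter elements, the X box (the RFX factors) and the Y box (NF-Y). Professional antigen-presenting cells express the set at all times, whereas many other cells, gut epithelium among them, acquire it in response to interferon-gamma. C57BL/6 mice carry a defective gene for the I-E alpha chain and show no I-E on the cell surface. That gene, H2-Ea, was listed at 0 TPM in all 10 libraries.

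The promoter letters below are shown because they hold the docking elements through which Ciita acts. The RefSeq promoter sequences used here (GRCm38.p6) were matched for 4 of the 7 genes, H2-Aa, H2-Eb1, H2-DMa and H2-DMb1, and each covers 250 bases before to 50 bases after the start. They were searched on both strands for the Y box CTGATTGG, for the shorter ATTGG that lies inside it, for the X box, a consensus of 14 positions, and for its inner 11 positions. Capitals mark a match to CTGATTGG or to the inner X box, and each sequence is read 5′ to 3′ on the strand of its gene. The H2-Aa and H2-Eb1 sequences are the 120 bases before the start. The H2-DMb1 sequence is limited to 30 bases, because the longer GENCODE transcript of that gene already covers it.
H2-Aa, chr17:34287824-34287943, minus strand: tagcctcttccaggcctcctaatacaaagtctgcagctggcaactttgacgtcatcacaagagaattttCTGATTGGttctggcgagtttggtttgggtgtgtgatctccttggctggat
H2-Eb1, chr17:34305747-34305866, plus strand: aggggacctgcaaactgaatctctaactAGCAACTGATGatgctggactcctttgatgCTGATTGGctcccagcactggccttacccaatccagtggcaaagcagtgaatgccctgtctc
H2-DMb1, chr17:34153092-34153121, plus strand: acctAGTAACTGATGatgctaggctgattc
In H2-Eb1 the inner X box began 92 bases and the Y box 62 bases before the start. H2-Aa held the Y box, 51 bases before the start, and no match to the inner X box. H2-DMb1 held the whole X box, beginning 98 bases before the start, and only the short ATTGG, 61 bases before it. H2-DMa held only ATTGG, 198 bases before 1 of its 2 starts. Over 27025 genes with a promoter entry, CTGATTGG was found in 4.7%, ATTGG in 41.1%, the inner X box in 1.14% and the whole X box in 0.0666%. These matches describe the letters and are no measure of binding.

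Class II transcripts were higher in the RhoB-/- group, and the RhoB-/- mice differed among themselves far more than the WT mice did. The 7 genes summed to 16.6 to 31.6 TPM in WT libraries, with a median of 24.2. In RhoB-/- replicates 1 to 5 they summed to 1602, 36.7, 2485, 78.4 and 421.6 TPM. All 5 sums lay above the highest WT sum, but that of replicate 2 was 1.45 times the WT mean and that of replicate 3 was 98.6 times it. In replicate 3 the 7 genes took 0.25% of all TPM, against 0.00171% to 0.00323% in WT libraries. In bulk RNA, more expressing cells and more RNA per cell cannot be told apart.

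**Figure D1:**
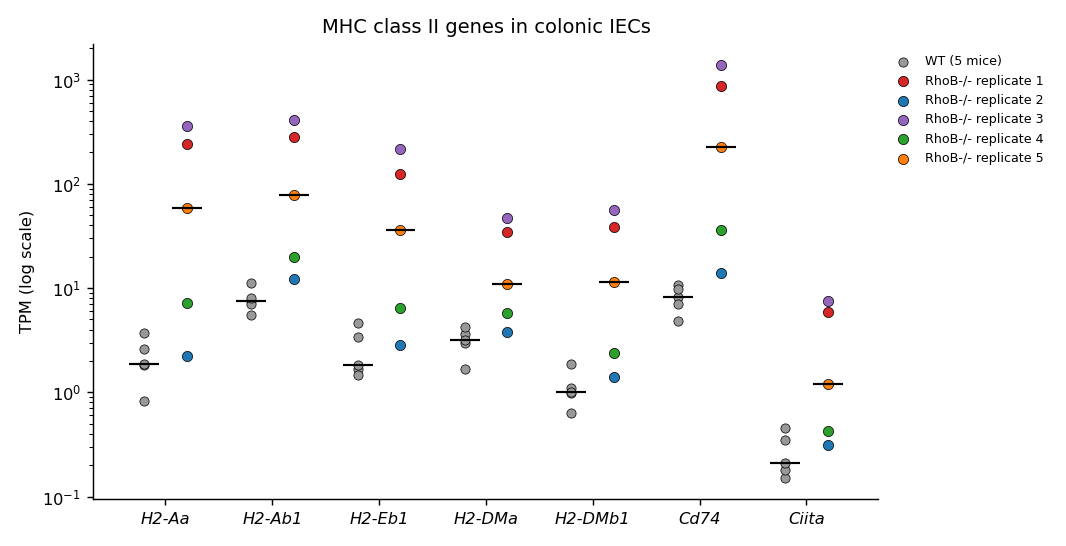
TPM (log axis) of the 7 class II genes in each library, with WT mice in grey, RhoB-/- mice coloured by replicate and a bar at each group's median. For every gene replicates 3 and 1 stand highest, replicate 5 lies at the median, and replicates 4 and 2 lie nearest to the WT points, from 0.31 TPM for Ciita to 36.1 TPM for Cd74.

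Among the surface chains, H2-Ab1 separated the genotypes without overlap. H2-Ab1 (ENSMUSG00000073421, chr17:34257689-34269419, plus strand, GRCm38) was at 7.49, 6.99, 8.02, 5.49 and 11.3 TPM in WT replicates 1 to 5, and at 279.9, 12.1, 409.6, 20.02 and 78.5 TPM in RhoB-/- replicates 1 to 5. The groups did not overlap, although replicate 2 stood only just above the highest WT mouse. On log2(TPM + 1), the scale of all fold changes here, H2-Ab1 was higher by 3.13 (SE 0.82, limma, adjusted p = 0.0199 by the Benjamini-Hochberg method over all 12870 genes tested). An exact two-sided permutation test of the same difference gave p = 0.00794, the smallest that 5 against 5 mice allow.

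H2-Aa (ENSMUSG00000036594, chr17:34282744-34287823, minus strand), the alpha partner, was at 2.59, 1.82, 1.88, 0.83 and 3.73 TPM in WT mice and at 242.4, 2.23, 356.4, 7.24 and 59.3 TPM in RhoB-/- mice. Here replicate 2 fell inside the WT range, and the other 4 RhoB-/- mice lay above it. The log2 fold change was 3.82 (SE 1.11, adjusted p = 0.0306 from limma, exact permutation p = 0.0238).

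H2-Eb1 (ENSMUSG00000060586, chr17:34305867-34316674, plus strand) rose as well, although its alpha partner is missing in this strain. It was at 1.67, 1.81, 4.62, 1.46 and 3.40 TPM in WT mice, and at 124.0, 2.85, 218.2, 6.47 and 36.4 TPM in RhoB-/- mice. Again only replicate 2 lay inside the WT range. The log2 fold change was 3.20 (SE 0.94, adjusted p = 0.0329 from limma, exact permutation p = 0.0238).

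Cd74 (ENSMUSG00000024610, chr18:60803848-60812652, plus strand), the invariant chain, showed the highest level and the highest fold change of the 7. Its WT values were 8.24, 7.01, 10.6, 4.83 and 9.76 TPM, and its RhoB-/- values 876.0, 14, 1391, 36.1 and 223.7 TPM. No RhoB-/- mouse overlapped the WT mice. Cd74 was higher by 4.29 on the log2 scale (SE 1.05, adjusted p = 0.0149 from limma, exact permutation p = 0.00794).

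The genes of the peptide exchange chaperone H2-DM rose in the same mice. H2-DMa (ENSMUSG00000037649, chr17:34119541-34139101, plus strand) was at 2.97, 3.61, 4.19, 3.18 and 1.66 TPM in WT mice and at 34.5, 3.77, 46.9, 5.80 and 11.0 TPM in RhoB-/- mice. H2-DMb1 (ENSMUSG00000079547, chr17:34153072-34160230, plus strand) was at 1.10, 0.99, 1.87, 0.63 and 1.0 TPM in WT mice and at 38.8, 1.39, 55.7, 2.41 and 11.5 TPM in RhoB-/- mice. For both genes replicate 2 lay within the WT range and the other 4 RhoB-/- mice lay above it. The log2 fold change was 1.86 for H2-DMa (SE 0.56, adjusted p = 0.0346 from limma) and 2.50 for H2-DMb1 (SE 0.76, adjusted p = 0.0369 from limma), with an exact permutation p = 0.0159 for each. Of the 100-base windows of the longest coding transcript of H2-DMb1, 13.7% also occur in its neighbour H2-DMb2, so part of its reads could have been shared between these copies. No such window of the other 6 genes occurs in another gene.

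Ciita (ENSMUSG00000022504, chr16:10480059-10528418, plus strand), the coactivator, was scarce in WT mice at 0.15, 0.45, 0.35, 0.18 and 0.21 TPM. In RhoB-/- mice it was at 5.93, 0.31, 7.44, 0.43 and 1.21 TPM, so replicates 1, 3 and 5 lay above every WT mouse and replicates 2 and 4 within the WT range. Its log2 fold change was 1.25 with a 95% interval of 0.18 to 2.32 (SE 0.49), and it did not pass the test (adjusted p = 0.0885 from limma, exact permutation p = 0.0397). Ciita reached the filter on low values, a mean of at least 1 TPM, only through the RhoB-/- libraries. Values this low also make its log2(TPM + 1) change smaller than its change in TPM.

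Thus 6 of the 7 genes were called higher at an adjusted p below 0.05 and none was called lower, against 7.73% of the 12870 tested genes called higher and 13.5% called lower. For 2 of the 7, Cd74 and H2-Ab1, every RhoB-/- library lay above every WT library, against 5.97% of the tested genes. The median log2 fold change of the 7 was 3.13, and that of all tested genes was -0.13. The 6 calls depended on which mice were included. Cd74 and H2-Ab1 kept an adjusted p below 0.05 with any 1 of the 10 mice left out, but only these 2 of the 7 were called without RhoB-/- replicate 1, without the library labelled RhoB-/- replicate 5, without WT replicate 2 or without WT replicate 4. Without WT replicate 1 or WT replicate 5, 3 genes were called, and without RhoB-/- replicate 2 all 7 were called, Ciita with an adjusted p = 0.0454 from limma. With no filter on low values none of the 7 was called (adjusted p = 0.0510 for Cd74 and 0.101 for H2-DMb1, the lowest and highest of the 6), although all 7 had an unadjusted p below 0.05. By an unadjusted p below 0.05 together with a fold change over 1.5, all 7 passed, against 6.37% of the tested genes.

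The RhoB-/- mice stood in one order for all 7 genes, with replicate 3 highest, then 1, 5, 4 and 2. Of the 12870 tested genes, 261 (2.03%) showed that order. Among the 10 listed genes of class I presentation, described below, 1 (Psmb8) showed it. The class I sum was also highest in replicate 3 (7321 TPM) and lowest in replicate 2 (4807 TPM). The ratio of the highest to the lowest RhoB-/- mouse was 160-fold for H2-Aa, 99.3-fold for Cd74, 76.6-fold for H2-Eb1, 40.1-fold for H2-DMb1, 33.8-fold for H2-Ab1, 24.0-fold for Ciita and 12.5-fold for H2-DMa. Among WT mice the ratios were 2.05 to 4.49. The SD of log2(TPM + 1) between RhoB-/- mice was 1.27 to 2.98 for the 7 genes, against 0.14 to 0.52 between WT mice and a median of 0.24 over all tested genes. By this SD, H2-Aa ranked at 34 and Ciita at 289 of the 12870 genes, with the others between. Limma takes 1 spread for both genotypes and draws it towards that of genes at a similar level. Its standard errors thus do not show the difference in spread between genotypes, and for genes that vary this much they are drawn down.

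The levels of the genes relative to one another also differed between mice. In WT mice Cd74 (8.10 ± 2.30 TPM, SD, n = 5) and H2-Ab1 (7.85 ± 2.12) stood level. Next came H2-DMa (3.12 ± 0.94), H2-Eb1 (2.59 ± 1.37), H2-Aa (2.17 ± 1.07) and H2-DMb1 (1.12 ± 0.46), in which each neighbour overlapped the next. Ciita (0.27 ± 0.13) was lowest and did not overlap H2-DMb1. In RhoB-/- mice the means were 508.1 ± 604.6 TPM for Cd74, 160.0 ± 176.6 for H2-Ab1, 133.5 ± 158.3 for H2-Aa, 77.6 ± 92.6 for H2-Eb1, 22.0 ± 24.2 for H2-DMb1, 20.4 ± 19.2 for H2-DMa and 3.06 ± 3.37 for Ciita (SD, n = 5), with SDs near or above the means. Replicate 2 kept the WT order of the genes, with H2-DMa above H2-Eb1 and H2-Aa, while in replicates 1, 3 and 5 H2-DMa was below both and below H2-DMb1.

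Cd74 made up 29.1% to 34% of the summed class II TPM in WT mice and 38.2% to 56.0% in RhoB-/- mice. The TPM ratio of Cd74 to H2-Ab1 was 0.868 to 1.33 in WT mice and 3.13, 1.16, 3.39, 1.80 and 2.85 in RhoB-/- replicates 1 to 5. On log2(TPM + 1) the ratio was higher by 1.15 in RhoB-/- mice (exact permutation p = 0.0159, or 0.0635 after adjustment over 4 ratios tested). H2-DMa relative to H2-Ab1 went the other way. It was at 0.148 to 0.579 in WT mice and at 0.123, 0.311, 0.115, 0.290 and 0.140 in RhoB-/- mice, a log2 difference of -1.28 (exact permutation p = 0.0317, adjusted 0.0635). The ratio of the I-A chains, H2-Aa to H2-Ab1, was 0.151 to 0.346 in WT mice and 0.866, 0.184, 0.870, 0.362 and 0.756 in RhoB-/- mice, a log2 difference of 0.68 (exact permutation p = 0.127, adjusted 0.127). None of these passed after adjustment with all mice. Without RhoB-/- replicate 2 each reached an adjusted permutation p = 0.0238, but none passed with any other single mouse left out. There the adjusted permutation p rose to as much as 0.111 for Cd74 and for H2-DMa relative to H2-Ab1. For H2-Aa relative to H2-Ab1 it rose to 0.254.

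For the DNA-binding partners of Ciita no change passed the test. Rfx5, Rfxap and Rfxank encode the RFX complex on the X box, Creb1 a factor on the neighbouring element, and Nfya, Nfyb and Nfyc the NF-Y complex on the Y box. Limma called 0 of these 7 genes, where 7.73% of all tested genes were called higher and 13.5% lower. With RhoB-/- replicate 3 left out it called 1 of them lower, and 2868 of all 12867 genes then tested. With all mice 1, Rfx5, had an unadjusted p below 0.05. Rfx5 was at 5.79, 5.32, 4.28, 5.45 and 4.04 TPM in WT mice and at 3.94, 2.62, 4.41, 3.12 and 4.07 TPM in RhoB-/- mice (log2 fold change -0.37, SE 0.14, adjusted p = 0.0835 from limma). The log2 fold changes of the other 6 lay between -0.21 and 0.04, near the -0.13 of the typical gene, and their 95% intervals between -0.56 and 0.38.

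Among the endosomal genes that process antigen and the invariant chain, 4 of the 8 tested were called higher, against the 7.73% above. That 1 was called lower is near the 13.5% of all tested genes called lower. Ctss encodes cathepsin S, which makes the last cut of the invariant chain in many antigen-presenting cells. It was at 95.9 to 200.3 TPM in WT mice (median 140.8) and at 234.1 to 338.3 TPM in RhoB-/- mice (median 249.7), without overlap (log2 fold change 0.88, SE 0.18, adjusted p = 0.00655 from limma). Ctsl (cathepsin L, 0.61), Ctsb (cathepsin B, 0.44) and Lgmn (legumain, 0.47) were the other higher genes. Ctse, the aspartic protease cathepsin E, fell by 1.16 on the log2 scale (SE 0.23, adjusted p = 0.0051 from limma), from 19.0 to 35.3 TPM in WT mice to 6.05 to 17.7 TPM in RhoB-/- mice. For Ctsd, Ifi30 and Marchf8, a ubiquitin ligase that removes class II from the surface, the log2 fold changes were 0.02, -0.18 and 0.00 and did not pass. Without RhoB-/- replicate 4, the library labelled RhoB-/- replicate 5 or WT replicate 1, 2 of these genes were called higher, and without WT replicate 4 only 1 was.

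**Figure D2:**
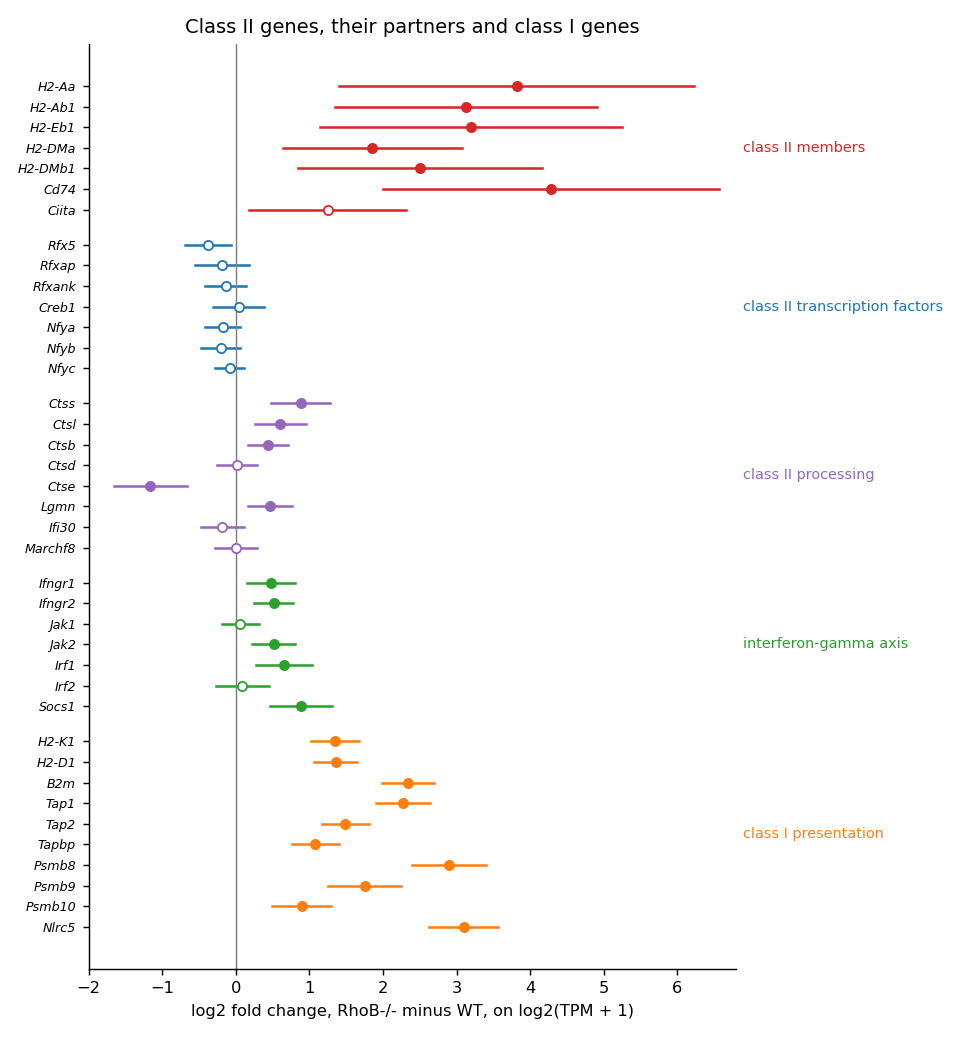
Log2 fold changes on log2(TPM + 1), RhoB-/- minus WT, with 95% intervals from limma (5 mice per genotype) for the tested genes of 5 lists; filled points had an adjusted p below 0.05. The class II intervals are the widest, 2.0 to 6.57 for Cd74, and the class II transcription factors lie around 0, while all 10 class I genes lie to the right of 0.

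In the interferon-gamma axis, which leads to Ciita in epithelium, 5 of 7 tested genes were called higher, against 7.73% of all tested genes, with a median log2 fold change of 0.52. Irf1, a transcription factor induced by interferon-gamma, was at 58.5 to 107.1 TPM in WT mice and at 132.3, 92.3, 139.9, 107.5 and 139.0 TPM in RhoB-/- mice (0.66, SE 0.18, adjusted p = 0.0221 from limma). The receptor chains Ifngr1 (0.48) and Ifngr2 (0.52), the kinase Jak2 (0.52) and the feedback inhibitor Socs1 (0.89) were the other called genes, each on the log2 scale, whereas Jak1 (0.06) and Irf2 (0.09) did not pass. Ifng itself was under the filter, at 0.17 to 1.17 TPM in WT mice and 0.19 to 1.13 TPM in RhoB-/- mice. Without RhoB-/- replicate 1, 2 genes of this list were called higher, and 3 were without the library labelled RhoB-/- replicate 5, WT replicate 2 or WT replicate 4. With the replicate number as a block or with no filter 3 were called, and 2 passed at an unadjusted p below 0.05 with a 1.5-fold change.

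Class I presentation, the parallel route that nearly all cells use, was higher in each of the 5 RhoB-/- mice. All 10 of its listed genes were called higher, against 7.73% of all tested genes. None of the 10 overlapped between the groups, where 5.97% of all tested genes were higher without overlap. Their median log2 fold change was 1.62, and all 10 were called with any 1 mouse left out. H2-K1, a class I heavy chain, was at 588.1 to 900.7 TPM in WT mice and at 1972, 1641, 2426, 1854 and 1995 TPM in RhoB-/- mice. Nlrc5, the class I counterpart of Ciita, reached the filter only through the RhoB-/- libraries. It was at 0.60 to 1.56 TPM in WT mice and at 22.4, 10.9, 17.8, 10.8 and 17.2 TPM in RhoB-/- mice. Between RhoB-/- mice the SD of log2(TPM + 1) was 0.20 for H2-K1, 0.24 for B2m and 0.44 for Nlrc5, against 2.20 for H2-Ab1. The largest SDs among the 10 were 0.52 for Psmb8 and 0.53 for Psmb9. The TPM ratio of H2-Ab1 to H2-K1 was 0.0076 to 0.0136 in WT mice and 0.142, 0.0074, 0.169, 0.0108 and 0.0393 in RhoB-/- mice, so replicates 2 and 4 fell into or below the WT range. The log2 difference of 1.79 did not pass (exact permutation p = 0.127, adjusted 0.127), and it reached 2.35 with an adjusted permutation p = 0.0238 without replicate 2. With any other single mouse left out it did not pass, with an adjusted permutation p of up to 0.254.

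**Figure D3:**
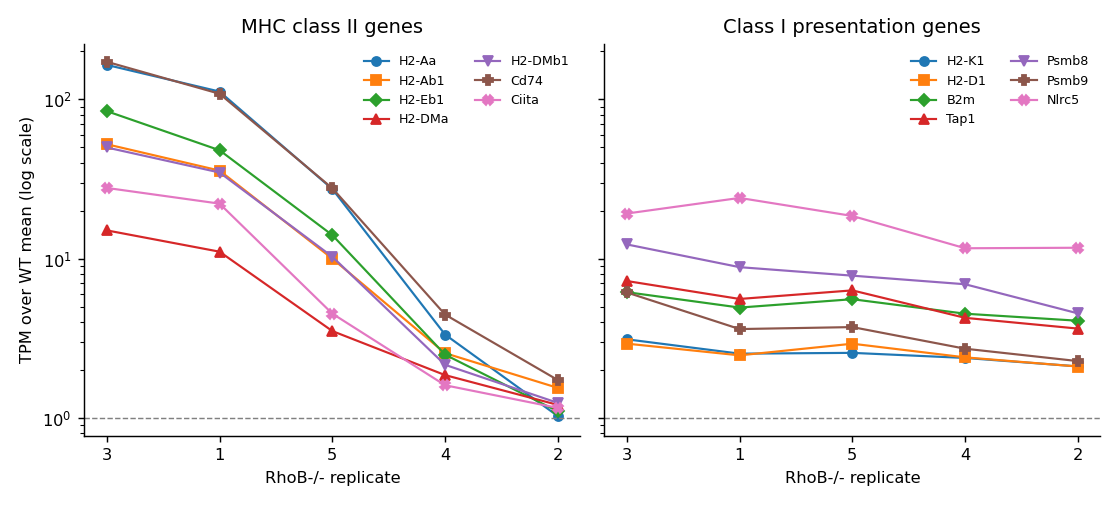
TPM of each RhoB-/- mouse divided by the WT mean (log axis; dashed line at 1), with mice placed by their class II level; lines join the points of a gene. The class II genes run from 15.0-fold (H2-DMa) to 172-fold (Cd74) in replicate 3 down to 1.03-fold (H2-Aa) to 1.73-fold (Cd74) in replicate 2. The 7 class I presentation genes drawn lie within 2.10-fold to 24.0-fold in all 5 mice. Of the listed class I genes not drawn, Tapbp was at 1.74-fold and Psmb10 at 1.28-fold in replicate 2.

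Naive T cells need a costimulatory ligand beside class II. Of 6 listed genes for activating or inhibitory partners of T cells (Cd40, Cd80, Cd86, Icosl, Cd274 and Pdcd1lg2), only Icosl and Cd274 passed the filter. Cd274, which encodes the inhibitory ligand PD-L1, was at 0.87 to 2.28 TPM in WT mice and at 5.08, 2.95, 4.95, 4.85 and 9.09 TPM in RhoB-/- mice, without overlap (log2 fold change 1.32, SE 0.24, adjusted p = 0.00308 from limma). Cd80, which encodes a classical activating ligand, stayed at or below 0.18 TPM, and its relative Cd86 at or below 0.53 TPM, in all 10 libraries.

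Leukocytes also express class II, so their markers are given beside it. Of 8 B cell markers none passed the filter, all 8 had a higher median in RhoB-/- mice, and their sum was 0.17 to 0.43 TPM in WT mice and 1.67, 0.32, 5.53, 2.66 and 15.8 TPM in RhoB-/- replicates 1 to 5. Cd79a, a signalling chain of the B cell receptor, was at 0.00 to 0.12 TPM in WT mice and at 0.52, 0.09, 1.96, 0.59 and 6.09 TPM in RhoB-/- mice. The B cell sum was lowest in replicate 2, as the class II sum was, but highest in replicate 5, whose class II sum of 421.6 TPM was below the 1602 TPM of replicate 1, where the B cell sum was 1.67 TPM. H2-DMb2, H2-Oa, H2-Ob and H2-Eb2, further class II genes of which H2-Oa and H2-Ob make the H2-DM inhibitor found mainly in B cells, summed with H2-Ea to 0.14 to 0.29 TPM in WT mice and to 0.35, 0.20, 2.23, 0.72 and 5.99 TPM in RhoB-/- mice. This sum too was highest in replicate 5, as were H2-DMb2, H2-Ob and H2-Eb2, whereas H2-Oa was highest in replicate 3 at 0.47 TPM.

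Macrophage and dendritic cell markers were low. Their 22 genes summed to 6.63 to 12.1 TPM in WT mice and to 22.0, 9.03, 17.9, 15.1 and 28.7 TPM in RhoB-/- mice, and 15 of the 22 had a higher median in RhoB-/- mice. Of the 5 tested, 2 (Cd68 and Tyrobp) were called higher, against 7.73% of all tested genes. Both reached the filter only through the RhoB-/- libraries. Cd68 was at 0.17 to 1.3 TPM in WT mice and at 2, 2.19, 3.01, 4.13 and 7.39 TPM in RhoB-/- mice. Tyrobp was at 0 to 1.75 TPM in WT mice and at 4.8, 1.7, 2.2, 2.47 and 4.81 TPM in RhoB-/- mice. The other 3 tested, Lyz2 (log2 fold change 0.81), Fcer1g (0.42) and C1qa (0.10), did not pass. Only 1 gene of this list was called higher without RhoB-/- replicate 1, without the library labelled RhoB-/- replicate 5 or without WT replicate 4. Between 2 and 7 of the 22 were listed at 0 in a WT library and 2 to 6 in a RhoB-/- library. Itgax, which encodes CD11c of dendritic cells and some macrophages, was under the filter but did not overlap, at 0.04 to 0.35 TPM in WT mice and 1.34, 0.49, 0.55, 0.61 and 0.53 TPM in RhoB-/- mice (exact permutation p = 0.00794). The dendritic cell gene Zbtb46 was at 0.01 to 0.10 TPM in WT mice and 0.02 to 0.12 TPM in RhoB-/- mice, Flt3 stayed at or below 0.10 TPM in every library, and the macrophage gene Adgre1 reached 2.14 TPM in the library labelled RhoB-/- replicate 5 and 0.17 TPM at most elsewhere. Markers of T cells and intraepithelial lymphocytes, which in mice carry little class II, summed to 17.1 to 35.3 TPM in WT mice and to 80.9, 74.5, 71.8, 67.6 and 72.2 TPM in RhoB-/- mice. Of the 11 tested, 8 were called higher, against 7.73% of all tested genes. Of these 8, 3 (Cd8a, Itgae and Zap70) reached the filter only through the RhoB-/- libraries. Plasma cell markers summed to 0.59 to 1.62 TPM and to 3.24, 1.76, 6.21, 4.66 and 14.3 TPM, and stromal and endothelial markers to 3.42 to 4.97 TPM and to 5.58, 7.77, 7.88, 14.7 and 28.7 TPM. Of 13 epithelial markers 3 (Krt20, Vil1 and Cdx2) were called higher, against 7.73% of all tested genes, and 5 without RhoB-/- replicate 2. The part of each cell type in the class II values was not tested.

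**Figure D4:**
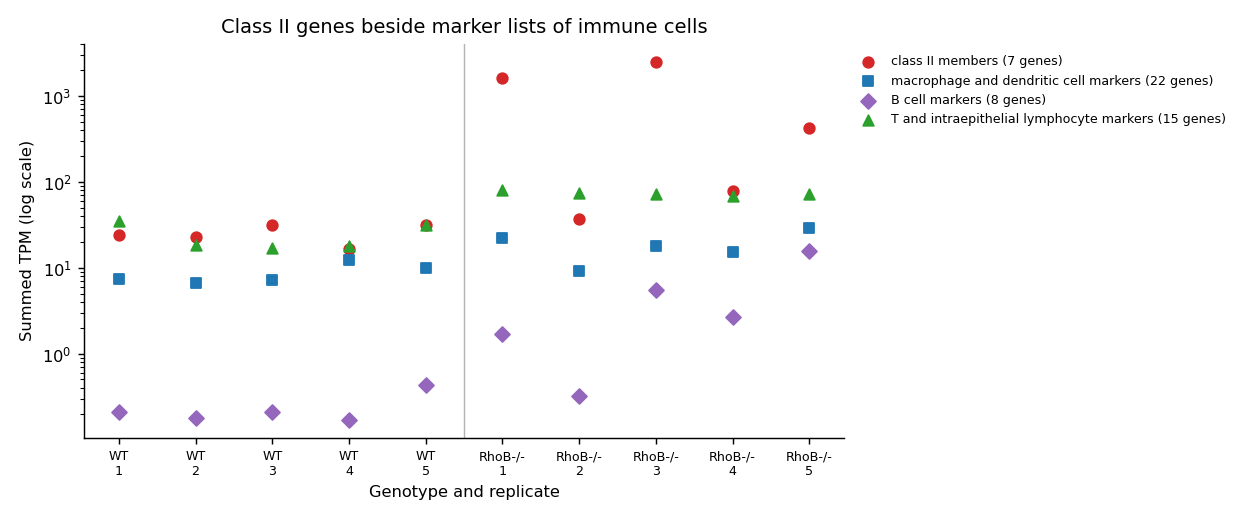
Summed TPM (log axis) of the 7 class II genes, of 22 macrophage and dendritic cell markers, of 8 B cell markers and of 15 T cell and intraepithelial lymphocyte markers in each library. The class II sum spans 36.7 to 2485 TPM over the RhoB-/- mice while the T cell sum stays between 67.6 and 80.9 TPM, and the B cell sum peaks in replicate 5 at 15.8 TPM.

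The 10 tested genes nearest in profile to the class II set were found by the root mean square difference, over the 10 libraries, between a gene's log2(TPM + 1) and the mean of the 7 genes, each centred on its own mean. They were Reg3b (0.69), Iigp1 (0.75), Lrg1 (0.81), Ido1, Gm8714, Tgtp1, Gm27690, Clca4b, Reg3g and Ubd (0.99), against a median of 2.02 over the tested genes. Being chosen for this likeness, their difference between genotypes is no separate result. Iigp1, Lrg1, Ido1, Gm8714, Tgtp1 and Gm27690 reached the filter only through the RhoB-/- libraries. Reg3b, a secreted antimicrobial lectin, was at 91.7 to 333.2 TPM in WT mice and at 3131, 247.6, 2219, 261.5 and 1652 TPM in RhoB-/- mice. Its relative Reg3g was at 55.9 to 147.9 TPM and at 1031, 53.7, 529.4, 76.7 and 409.3 TPM. In both, replicates 1, 3 and 5 lay above every WT mouse, with replicate 1 highest, and replicates 2 and 4 fell within or just under the WT range, whereas for class II replicate 4 lay above every WT mouse in all genes but Ciita. Iigp1, an interferon-inducible GTPase, was at 0.10 to 1.14 TPM in WT mice and at 20.9, 3.28, 20.8, 5.59 and 9.12 TPM in RhoB-/- mice. Ido1, which breaks down tryptophan, was at 0.04 to 1.29 TPM and at 14.03, 1.97, 12.0, 4.81 and 7.31 TPM, and Ubd, a ubiquitin-like modifier, at 0.36 to 2.52 TPM and at 12.6, 3.07, 15.1, 4.62 and 8.66 TPM. Clca4b reached 260.2 TPM in replicate 1 from 1.46 to 3.24 TPM in WT mice. Tgtp1 shares 83.3% of its 100-base windows with a neighbouring copy and is uncertain, and Gm27690 was listed at 0 in 8 of the 10 libraries.

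**Figure D5:**
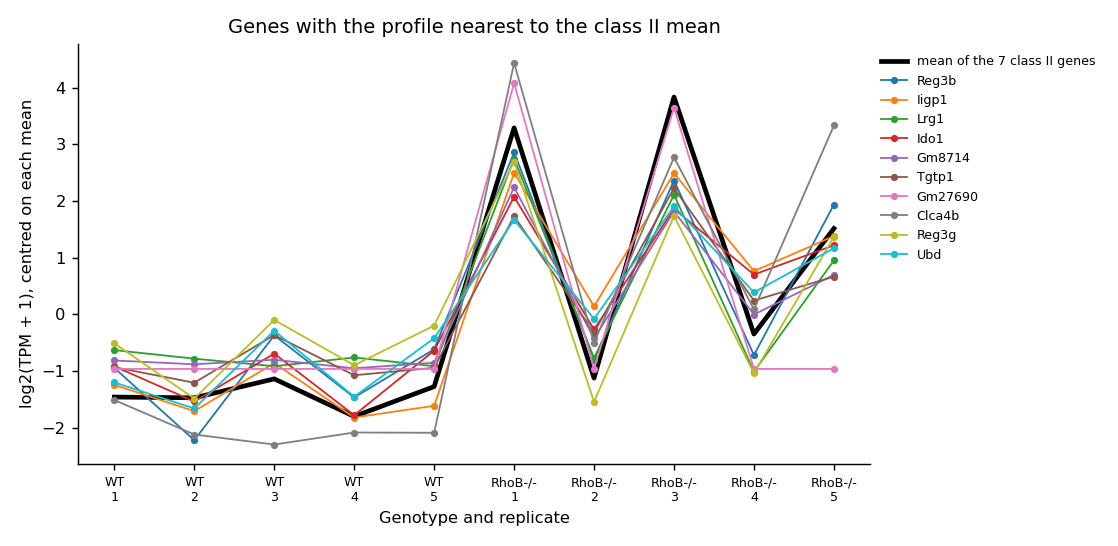
Log2(TPM + 1), centred on each gene's mean, in each library for the mean of the 7 class II genes (thick line) and the 10 genes nearest to it; lines only join the points of a gene. All 11 profiles are high in RhoB-/- replicates 1 and 3 and low in the WT mice, and their root mean square distance from the thick line is 0.69 to 0.99.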

How the data were processed

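The authors sequenced paired ends of 150 bp, and used SeqPrep and Sickle for trimming, HISAT2 for alignment, StringTie for assembly and RSEM for gene levels. The build, GRCm38.p6, and edgeR are named in the submitters' processing notes, and versions are not given in the sources used here. The deposited TPM were used as the authors gave them. TPM keeps no depth and is relative within a library, where a very abundant transcript lowers all others.

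Genes with a mean of at least 1 TPM (12870 of 55487) were compared with limma 3.58.1 (R 4.3.3, lmFit, eBayes with trend) on log2(TPM + 1) and called at a Benjamini-Hochberg adjusted p below 0.05. The fit was also run on simulated normal data in which each gene had the same spread in both genotypes. The class II genes do not have this, so that run cannot speak for their calls. Single values were compared by exact permutation over 252 labellings. Annotation was GENCODE M21. The genes named are the 7 class II genes, those on the lists of partner and marker genes, and the 10 nearest profiles; members and lists were chosen with earlier results of these data known. A listed gene of the interferon-gamma axis and a listed B cell marker are not reported here and are left out of their lists. Same-numbered mice are different animals. P-values measure the spread between mice.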

Additional observations from a re-analysis of the deposited data

Results flagged for a closer look

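In 92 groups of 5 libraries examined, 8 held a value far from the other 4, where chance would give about 4.6. The library labelled RhoB-/- replicate 5 had Rhob at 110.9 TPM, against 0.57 TPM at most in the other 4. In that same library H2-DMb2 was at 2.51 TPM, H2-Eb2 at 0.22 TPM, Marchf1, a ubiquitin ligase for class II, at 0.41 TPM and Irf2 at 50.4 TPM, each above the other RhoB-/- libraries. Among WT libraries, Rfxank stood apart in replicate 2 at 17.9 TPM, Cd40 in replicate 3 at 0.14 TPM and Cd86 in replicate 5 at 0.21 TPM. None of the 7 class II genes held such a value in either genotype.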

How the results depend on the processing

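The direction of the 7 class II genes did not reverse under any alternative. A pseudocount of 0.1, a minimum mean of 5 TPM, quantile normalization, centring on the median, leaving out mitochondrial genes, limma without trend and a replicate block each left 6 genes called. With no filter, 0 were called, at unchanged log2 fold changes of 4.29 for Cd74 (adjusted p = 0.0510), 3.82 for H2-Aa (0.0883), 3.20 for H2-Eb1 (0.0930), 3.13 for H2-Ab1 (0.0641), 2.50 for H2-DMb1 (0.101) and 1.86 for H2-DMa (0.0958); 28114 genes were then tested. With calls made at an unadjusted p below 0.05 plus a 1.5-fold change, Ciita passed with 1.25 and all 7 were called. An exact rank test, added after the data were seen, gave Ciita a mean rank difference of 3.80 (p = 0.0556).

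With 1 mouse left out, the number called ranged from 2 to 7. The log2 fold change ranged from 3.53 to 5.17 for Cd74, 3.05 to 4.75 for H2-Aa, 2.52 to 3.77 for H2-Ab1, 2.49 to 3.95 for H2-Eb1, 1.94 to 3.08 for H2-DMb1, 1.43 to 2.26 for H2-DMa and 0.87 to 1.55 for Ciita, with the same ranges in the exact permutation tests. The exact p stayed at or below 0.0317 for Cd74 and H2-Ab1, and rose to as much as 0.0714 for H2-Aa and H2-Eb1, 0.0635 for H2-DMa and H2-DMb1 and 0.0952 for Ciita. The log2 ratios ranged from 1.01 to 1.4 for Cd74 to H2-Ab1, 0.52 to 0.98 for H2-Aa to H2-Ab1, -1.55 to -1.10 for H2-DMa to H2-Ab1 and 1.25 to 2.35 for H2-Ab1 to H2-K1. The number of all genes called was 719 to 1154 higher and 853 to 2868 lower.

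Over all genes, 995 were called higher and 1734 lower. The numbers were 2010 and 1645 with centring on the median, 1587 and 1975 with quantile normalization, and 814 and 1104 at a minimum mean of 5 TPM. Without mitochondrial genes they were 1101 and 3729 of 13287 tested, and 2 of the 7 class II transcription factors were among the lower. The median log2 fold change moved between -0.20 and -0.01. The unadjusted threshold gave 1072 lower. Same-numbered mice did not deviate together (correlations of -0.087 to 0.072), and the replicate block gave 836 higher and 1059 lower with no class II call changed. The cause of these shifts was not tested. Depth is unknown, so no counting error can be given for values far below 1 TPM, as for Ciita in WT mice.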

Other observations

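Among T cell and intraepithelial lymphocyte markers, Lck, Trac and Trbc1 did not pass the test, and Gzma and Gzmb were the most abundant of those called higher. Gzma, the granule protease granzyme A, was at 2.27 to 6.63 TPM in WT mice and at 22.7, 27.3, 25.3, 21.9 and 22.8 TPM in RhoB-/- replicates 1 to 5 (log2 fold change 2.32, SE 0.21, adjusted p = 1.81e-05 from limma). Gzmb, granzyme B, was at 1.21 to 4.05 TPM and at 13.5, 14.9, 15.4, 15.6 and 9.50 TPM (2.11, SE 0.22, adjusted p = 6.41e-05 from limma). Cd8a was at 0.58 to 1.09 TPM and at 3.50, 2.14, 3.55, 2.81 and 2.71 TPM, while Cd4, whose product binds class II, stayed at or below 0.33 TPM in all 10 libraries. Gzma varied little between the RhoB-/- mice (SD of log2(TPM + 1) 0.13). It was highest in replicate 2, which had their lowest class II sum, and next highest in replicate 3, which had their highest.

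Dcn, a stromal proteoglycan gene, was at 1.80 to 2.30 TPM in WT mice and at 3.27, 4.49, 5.28, 11.1 and 24.5 TPM in RhoB-/- mice (log2 fold change 1.5, SE 0.39, adjusted p = 0.0202 from limma), highest in the library labelled RhoB-/- replicate 5. The other 6 stromal and endothelial markers were under the filter. Krt20, a keratin of differentiated surface colonocytes, was at 588.1 to 902.4 TPM in WT mice and at 1652, 1070, 1621, 1505 and 2414 TPM in RhoB-/- mice (1.17, SE 0.20, adjusted p = 0.00224 from limma).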
